A study of Mus musculus with 20 samples.

Results

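Cluster 3 is one of the 6 groups into which the authors' annotation divides the microglia of the mouse retina. It holds the wells that this annotation names microglia and numbers 3, which are 82 of 314 microglia wells and of 511 annotated retinal wells in all. Single CD45+ cells were sorted by flow cytometry after staining for CD45 and CD11b, and their transcripts were counted by mCEL-Seq2, which tags each captured RNA with a molecular identifier. All mice were C57BL/6 and 8 weeks old. The retina gave 12 of the 20 libraries, each of 192 wells: 4 from unlesioned control retina, 4 taken 3 days after laser and 4 taken 7 days after laser. In the labels the laser libraries carry the letters CNV, which commonly stand for choroidal neovascularization, the growth of new vessels from the choroid that a laser lesion provokes.

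Microglia are the resident macrophages of nervous tissue. In the retina they lie in the plexiform layers, survey the tissue with motile processes and move towards a lesion. In rest they express a set of surface receptors, among them the purinergic receptor P2ry12, the fractalkine receptor Cx3cr1 and the membrane protein Tmem119. After injury, microglia are known to lower these genes and to raise genes of lipid handling and lysosomal digestion, such as Apoe.

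The 82 wells came from 11 of the 12 retina libraries. Of the microglia wells, cluster 3 held 29 of 120 in control retina, or 24.17% (95 percent Wilson interval 17.39 to 32.55), then 12 of 81 at day 3, or 14.81% (8.68 to 24.13), and 41 of 113 at day 7, or 36.28% (28 to 45.46). The libraries gave 5, 2, 5 and 17 wells each in control retina. Those of day 3 gave 2, 0, 1 and 9, and those of day 7 gave 9, 16, 6 and 10. These shares are a description without a test, because genes that differed between the groups may have been used to draw the clusters, whose method is not given. The other clusters were spread over the groups in other ways. Cluster 4 had 56, 9 and 16 wells in control, day 3 and day 7 retina, and cluster 5 had 32, 15 and 13. Cluster 6 had 1, 39 and 7 wells in the same order, whereas clusters 11 and 14 had 2, 3 and 21 wells and 0, 3 and 15 wells. Cluster 3 was thus a sizeable class both before and after the lesion.

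The libraries fall into pairs that share a group and a prefix, P1 or P2, in their names. Wells are not replicates, so transcripts were summed over the cluster 3 wells of each pair, and likewise over the other 232 microglia wells. The 6 sums of cluster 3 held from 5239 transcripts (2 wells, day 3 P1) to 60174 transcripts (25 wells, day 7 P1), and those of the other microglia 48510 to 190366. Whether the pairs come from separate animals is not stated in the labels, and p-values may then measure technical spread. A cluster 3 well had a median of 2086 transcripts and 1348 genes, against 1942 transcripts and 1232 genes for the other microglia. Levels are given in CPM, the transcripts of a gene per 1000000 transcripts of its sum, counting the genes in the authors' table.

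The label fitted the markers. The 31 microglia markers together took 76730 to 103700 CPM in the 6 cluster 3 sums, against 54750 to 90020 in the other microglia. P2ry12 had at least 1 transcript in 79 of the 82 cluster 3 wells and Tmem119 in 71 of 82, against 195 of 232 and 177 of 232 of the other microglia. For P2ry12 the classes were close in control retina, where 1 of 29 cluster 3 wells and 4 of 91 others lacked it. At day 3 it was lacking in 0 of 12 and 18 of 69, and at day 7 in 2 of 41 and 15 of 72. The authors' second annotation, made from signatures, called 81 of the 82 wells microglia (98.8%), against 196 of 232 (84.5%). Several lists of markers of other cells were low. The monocyte list summed to 190.9 to 749.3 CPM, the border macrophage list to 0 to 381.8 and the retinal pigment epithelium list to 0 to 248.4, with Chil3, Vcan, Lyve1, Cd163, Mlana and Pmel at 0 in every sum. In the other microglia these 3 lists summed to 123.7 to 1484, 20.62 to 245.9 and 0 to 364.6 CPM. The monocyte list was higher in cluster 3 in both control pairs, at 238.3 and 749.3 CPM, against 123.7 and 333.1. The lymphocyte list summed to 299.2 to 571.3 CPM, against 230.2 to 536.1 in the other microglia, and its defining genes Cd3e and Trac were at 0. At day 3 this list was higher in cluster 3, at 381.8 and 571.3, against 230.2 and 331.1. At day 7 it was lower there, at 299.2 and 331.2, against 406.2 and 494.9. In control retina the pairs were split, at 417 and 471.6, against 536.1 and 369.1. The granulocyte list summed to 714.2 to 1146 CPM in cluster 3, against 172.6 to 872.6 in the other microglia, and was highest against them at day 3, with 1146 and 714.2, against 172.6 and 294.3. Most of it was Csf3r, the receptor for the growth factor G-CSF, at 631.8 to 915.8 in cluster 3, while the defining genes S100a8, S100a9, Ly6g and Camp were at 0. The dendritic cell list summed to 1337 to 2026 CPM in cluster 3, against 729 to 2260, most of it Siglech, a lectin that microglia also express, at 1311 to 1693. Markers of Muller glia and astrocytes, a list that holds Apoe, summed to 1132 to 5111 CPM in cluster 3, against 1651 to 16260. Photoreceptor transcripts were present in both classes, at 4010 to 11320 CPM in cluster 3 and 2638 to 13250 in the other microglia.

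Against the other microglia of the same library pairs, cluster 3 had more transcripts of several microglial identity genes and fewer of several lesion-associated genes. These ratios are a description and carry no test, because a cluster rests on the expression of its own wells, and these genes may have been used to draw it. Of 4870 genes with at least 50 CPM in the higher class, 83 were higher in all 6 sums (1.7% of them) and 149 were lower in all 6 (3.06%). The median of their mean log2 ratios, cluster 3 over other, was -0.172. Of the 29 microglia markers among them, 10 were higher in all 6 sums and 0 were lower, with a median log2 ratio of 0.34.

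Cst3, which encodes the protease inhibitor cystatin C, was the most abundant of these 10. It stood at 27870 (P1) and 22280 (P2) CPM in cluster 3 of control retina, against 23620 and 16040 in the other microglia. At day 3 it stood at 12470 and 15330 in cluster 3, against 6277 and 7554 in the others. At day 7 it stood at 16760 and 16260 in cluster 3, against 11220 and 12050. The classes did not overlap at either time after laser, and within each pair cluster 3 was the higher. Cluster 4 was close to cluster 3 after laser. At day 3 Cst3 stood at 14880 CPM in cluster 3 over both pairs, against 13510 in cluster 4, 5213 in cluster 5 and 7150 in cluster 6, and in the P2 pair it was higher in cluster 4. At day 7 it stood at 16570 in cluster 3, against 14750, 12430, 11530, 11760 and 7112 in clusters 4, 5, 6, 11 and 14. In single wells the median Cst3 level at day 3 was 152.9 per 10000 transcripts in cluster 3 and 59.7 in the other microglia.

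Cx3cr1 had 5491 and 5195 CPM in cluster 3 of control retina, against 2848 and 4145 in the other microglia. At day 3 it had 3442 and 2787 in cluster 3, against 1911 and 1986, and at day 7 it had 3162 and 2652, against 1872 and 1825. Its classes were apart in every group. The mean log2 ratio was 0.65 (0.32 to 0.94 over the 6 sums). Tmem119 gave a similar ratio of 0.66 (0.28 to 1.05). Sparc, which encodes a matrix-binding glycoprotein made by microglia, gave 0.63 (0.24 to 1.09) and Csf1r, the receptor for the survival factor CSF1, 0.43 (0.17 to 0.98). Also higher in all 6 sums were Ctss, Golm1, Olfml3 and Selplg.

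P2ry12 behaved otherwise. It had 2504 and 2915 CPM in cluster 3 of control retina, against 3178 and 3478 in the other microglia, so cluster 3 was the lower class before the lesion. At day 3 it had 1528 and 1572 in cluster 3, against 748.5 and 815.1, and at day 7 it had 1846 and 1574, against 1144 and 1107. After laser cluster 3 was therefore higher than the other microglia together in every pair. Cluster 4 alone was above it at day 7, at 1948 (P1) and 1983 (P2) CPM. Cluster 14 stood at 467.1 and 2043 then, the latter from 5 wells. At day 3 cluster 4 was below cluster 3, at 1231 (7 wells) and 1411 (2 wells). P2ry13, another purinergic receptor, was also higher in cluster 3 than in the other microglia together in the 4 pairs after laser. Its log2 ratios ran from -0.23 to 0.92 over all 6. Gpr34, a lysophosphatidylserine receptor, showed no such order, with ratios from -0.31 to 0.39. Sall1, a transcription factor of microglial identity, had 774.6 and 749.2 CPM in cluster 3 of control retina, against 474.3 and 576.1, but was at 0 in the day 3 sum of 2 wells.

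**Figure D1:**
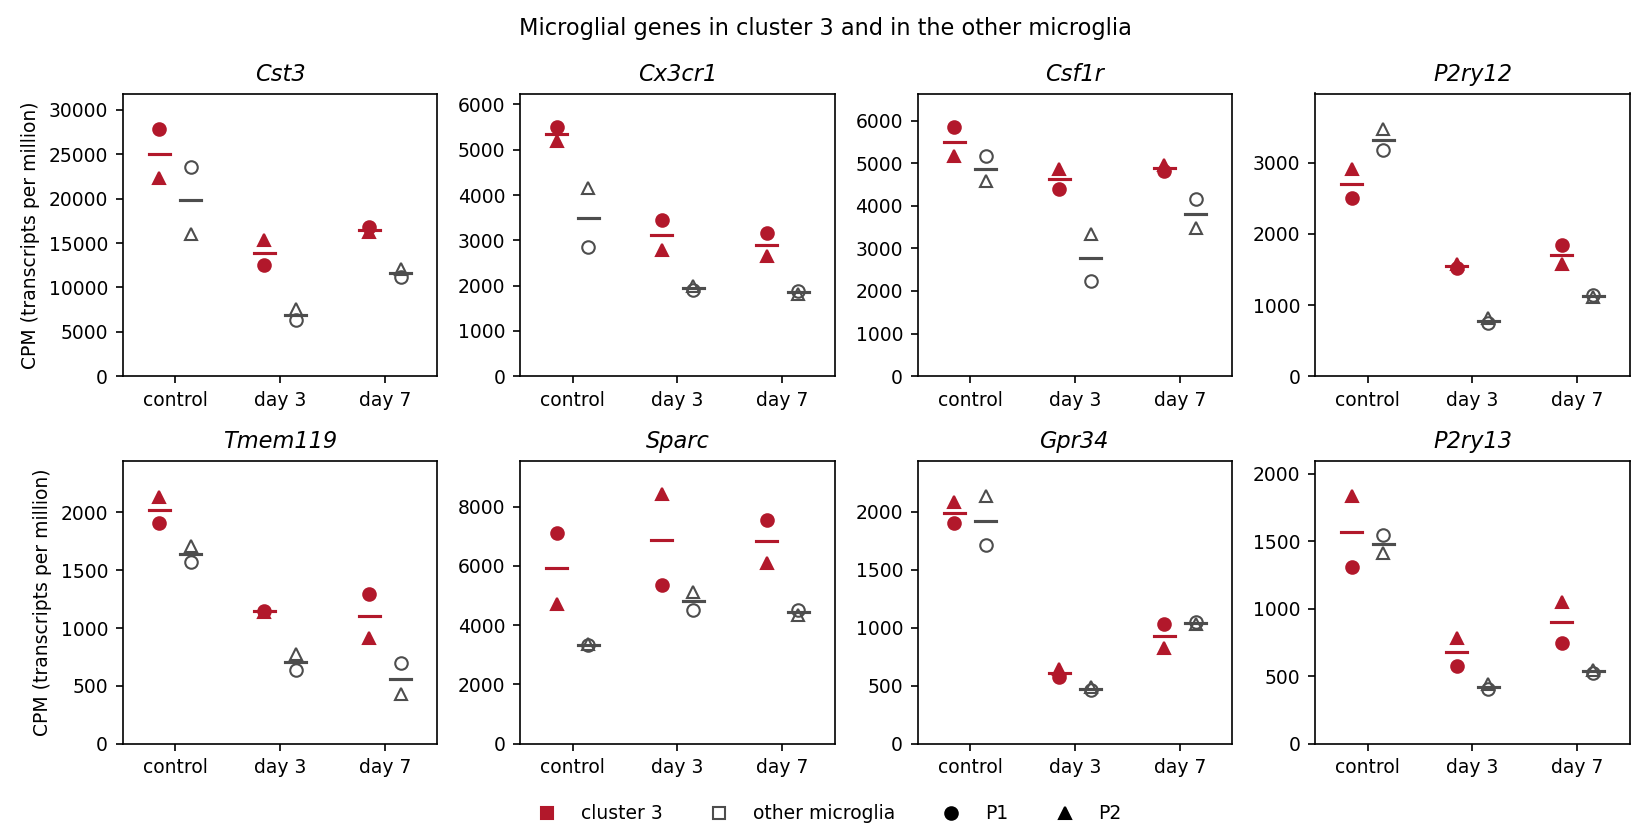
Levels of 8 microglial genes (CPM, linear axis from 0) in the sums of cluster 3 (filled) and of the other microglia (open) in control retina and 3 and 7 days after laser. Circles are P1 sums, triangles P2 sums and bars the mean of both. Cst3, Cx3cr1, Tmem119 and Sparc are higher in cluster 3 than in the other microglia together within each pair. P2ry12 is lower in cluster 3 of control retina and higher after laser, again against the other microglia together.

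The genes with the highest ratios by a fixed rule were scarce. The 15 named by it had mean log2 ratios of 1.01 to 1.65 and rested on 8 to 39 transcripts each over all cluster 3 wells, against 9 to 59 over the other microglia. First was Nck1, an adaptor between receptors and actin, with 15 transcripts in cluster 3 and 12 in the other microglia. Next came Pcyt2, an enzyme of phosphatidylethanolamine synthesis, with 15 and 12. The rest were Gm43577, Ankra2, Rab20 (a small GTPase of endosomes and phagosomes), Zfp46, Ino80d, Gm38194, Usp17la, Sumf1 (which activates sulfatases), Usp35, Wdr81, Acap2, Cd82 (a tetraspanin) and Tifa. At these counts a ratio describes only the wells at hand, and that of Sumf1 was 0.13 once each well was thinned to 1000 transcripts. Without the day 3 P1 sum of 2 wells those of Usp35, Wdr81 and Acap2 were 0.67, 0.60 and 0.67, against 1.13, 1.09 and 1.05 with it. The 10 lowest, with mean log2 ratios of -2.21 to -1.78, each had at least 1 cluster 3 sum at 0. For Gm10116 that was the day 3 P1 sum of 2 wells, without which its ratio was -0.99. They were Cbx3 (a heterochromatin protein), Lrrc59, Cybb (a subunit of the phagocyte NADPH oxidase), Cxcl16 (a chemokine), Mrpl12, Gde1, Khsrp, H13, Prr12 and Gm10116. Cybb had 9 transcripts in cluster 3 and 153 in the other microglia.

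Among abundant transcripts, the widest separation was in Gm42418, which falls outside that rule and was chosen after its values were seen. Gm42418 is a predicted noncoding gene whose locus overlaps ribosomal RNA sequence. In control retina it had 7050 and 5889 CPM in cluster 3, against 23890 and 18830 in the other microglia. At day 3 it had 5545 and 6478, against 24450 and 9676, and at day 7 it had 3245 and 5588, against 11920 and 16310. Cluster 3 was lower in every pair, with a mean log2 ratio of -1.59. The 3 clusters that made up nearly all control microglia were ordered by this transcript in each group. In control retina, over both pairs, Gm42418 stood at 6258 CPM in cluster 3, 14150 in cluster 4 and 32930 in cluster 5. At day 3 it stood at 6331, 17160 and 40480, and at day 7 at 4126, 16930 and 28700. Clusters 6, 11 and 14 at day 7, at 7916, 9920 and 5640, lay nearer to cluster 3 than to cluster 5. In the day 7 P2 pair cluster 14 was level with cluster 3, at 5485 and 5588. In the day 3 P2 pair clusters 6 and 11, at 8196 and 8203, were also near the 6478 of cluster 3. Cluster 14 was below it there, at 3653 (3 wells). A low level was thus not particular to cluster 3 after laser.

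**Figure D2:**
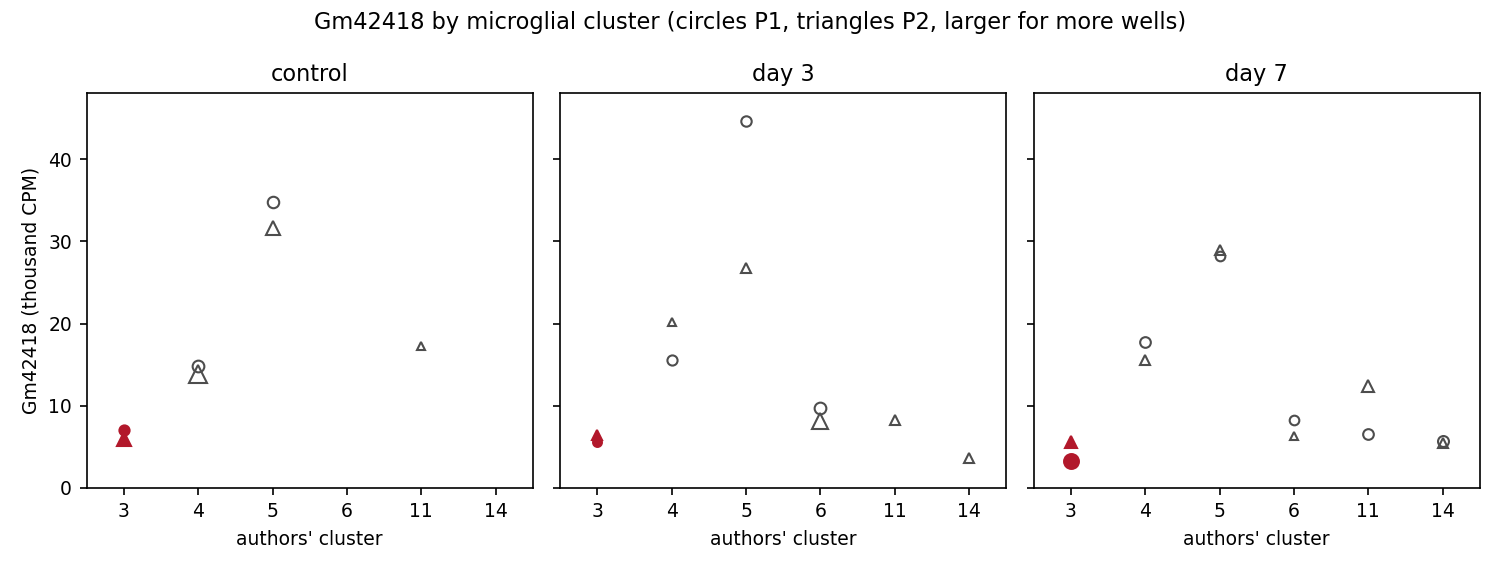
Level of Gm42418 (CPM divided by 1000, linear axis from 0) by the authors' microglial cluster, with 1 point per library pair of at least 2 wells, larger for more wells. Cluster 3 (filled) lies below clusters 4 and 5 in control retina and at both times after laser.

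Some genes of the lesion response were lower in cluster 3. For comparison, 1.7% of all 4870 measured genes were higher and 3.06% were lower in all 6 sums. Of 23 measured genes of the disease-associated microglia list, 0 were higher and 5 were lower in all 6 sums, with a median log2 ratio of -0.44. The 5 were Apoe, Cd63 (a tetraspanin of late endosomes), Clec7a (the receptor dectin-1), Ctsb (cathepsin B) and Lgals3 (galectin-3). The lysosome list was split, with 4 of 28 members higher in all 6 sums (Ctss and Laptm5 among them) and 2 lower, Cd63 and Ctsb. Spp1, which encodes osteopontin, had 0 and 71.4 CPM in cluster 3 at day 3, against 509.9 and 352.4 in the other microglia. At day 7 the classes overlapped, at 99.75 and 27.6 in cluster 3, against 53.46 and 91.16.

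Housekeeping lists had medians below that of all genes. Over all 4870 measured genes, 3.06% were lower and 1.7% were higher in all 6 sums. Of 58 measured cytosolic ribosomal protein genes, 13 were lower in all 6 sums and 0 were higher, and the list's median log2 ratio was -0.51. For 37 nuclear genes of oxidative phosphorylation the median was -0.65, with 4 lower in all sums (Atp5e, Atp5h, Sdhb and Uqcrh). For 11 genes of glycolysis it was -0.90, with Aldoa and Pkm lower in all. Ribosomal protein genes have many processed pseudogenes, and the counting of shared reads is not stated in the labels, which leaves single members uncertain. The gap in ribosomal transcripts was widest at day 3, when the list summed to 29790 and 44320 CPM in cluster 3, against 60370 and 60750 in the other microglia. In control retina it summed to 30090 and 30630, against 36790 and 33300. At day 3 cluster 6 gave 39 of the 69 wells of the other microglia, and the list sums were not split by cluster.

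The actin gene Actb, also chosen after its values were seen, had 7848 and 11050 CPM in cluster 3 at day 3, against 19240 and 19840 in the other microglia. In control retina the classes overlapped, at 8494 and 6418 in cluster 3, against 7706 and 6365. At day 7 they overlapped as well, at 4462 and 5973, against 4972 and 5794. Malat1, a nuclear noncoding RNA, showed the opposite order at day 3, with 4399 and 4507 in cluster 3, against 1904 and 2140.

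A second measure came from transcripts outside the authors' table. The library tables of the annotated wells hold 96 genes that this table lacks, 15 of them mitochondrial, and Gm10800 alone makes up 18.2% of all transcripts of these wells. Gm10800 and the other left-out genes that are not mitochondrial took a median of 31.71 to 48.54% of a well's transcripts in the 4 control libraries in cluster 3, against 34.18 to 45.60% in the other microglia. At day 3 the medians were 28.90 to 41.23% in cluster 3 (3 libraries), against 1.77 to 12.80% in the other microglia (4 libraries). At day 7 they were 21.92 to 44.93% in cluster 3, against 13.38 to 36.40%. At day 3 the medians of cluster 3 all lay above those of the other microglia, which were below every control median, but 2 of the 3 cluster 3 medians rest on 2 wells and 1 well. Over all groups cluster 4 was close to cluster 3 in this measure, with a median well of 36.98% in cluster 3, against 37.41% in cluster 4 and 4.32% in cluster 6. At day 3 alone the median was 35.07% in cluster 3 (12 wells), against 14.27% in cluster 4 (9 wells), 2.84% in cluster 5, 2.77% in cluster 6 and 15.59% in cluster 14 (3 wells), and at day 7 it was 35.51% in cluster 3, against 33.05% in cluster 4. Cluster 3 was the higher class in all 3 libraries at day 3, 3 of 4 at day 7 and 2 of 4 in control retina. The part of this share in the gene ratios above was not tested.

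Mitochondrial transcripts, as a share of table and mitochondrial transcripts together, were lower in cluster 3 in 10 of 11 libraries. The difference between class medians averaged -2.65 percentage points (SD 2.56, range -6.90 to 2.49). Over all groups the median well had 13.12% in cluster 3, close to 13.72% in cluster 6, 14.41% in cluster 11 and 14.8% in cluster 4. Cluster 14 had 15.39%, and cluster 5 was furthest off, at 19.99%. Depth did not separate the classes, with cluster 3 higher in 5 of 11 libraries and a mean log2 ratio of median well totals of 0.03 (SD 0.26). These are values without a test, since the way the clusters were drawn is not stated in the labels. Of the control wells that also appear in the authors' second annotation table, which covers unlesioned retina, cornea and ciliary body, 20 of 27 cluster 3 wells fell in its cluster 13 and 7 in its cluster 14. The other microglia there had 9, 45 and 30 of 84 wells in clusters 13, 14 and 15.

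**Figure D3:**
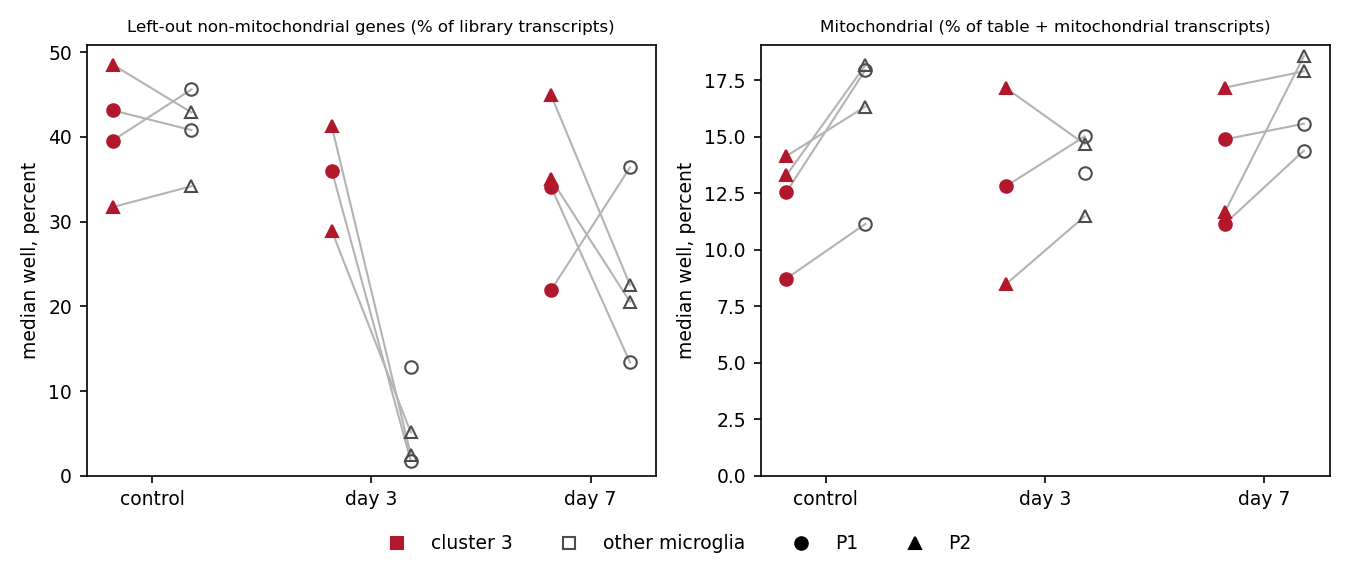
Median percentage of a well's transcripts in left-out genes that are not mitochondrial (left) and in mitochondrial genes (right, of table and mitochondrial transcripts), for cluster 3 (filled) and the other microglia (open) of each library, joined by a line. At day 3 the left-out share is 28.90 to 41.23% in cluster 3, from 2, 1 and 9 wells, and 1.77 to 12.80% in the other microglia. The mitochondrial share is lower in cluster 3 in 10 of 11 libraries.

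The next comparison asked whether cluster 3 microglia themselves differed between day 7 and control retina. Apoe, the lipid carrier apolipoprotein E, rose most, followed in size by Lrrc17, Gm9493, Cd52 and Ctsb. The receptors Cx3cr1 and Gpr34 and the peptidase Mme fell. In all, 8 of 1087 genes tested passed an adjusted p of 0.05 in edgeR's quasi-likelihood test with Benjamini-Hochberg adjustment (0.736%), 5 higher (0.46%) and 3 lower (0.276%), and 116 had an unadjusted p under 0.05. The fit used 2 sums at day 7, 2 in control retina and the day 3 P2 sum. The last is alone in its group and so gives no measure of spread of its own. It does enter the filter on low counts, and without it 618 genes were tested. The same genes may have been used to place the wells in the cluster.

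Apoe had 2580 (P1) and 3538 (P2) CPM in cluster 3 at day 7, against 417.1 and 693.7 in control retina. The log2 change was 2.35 ± 0.30 (SE; adjusted p = 1.19e-11, edgeR). Apoe was found in 36 of 41 cluster 3 wells at day 7 and in 18 of 29 in control retina. No single well held more than 8.85% of the transcripts at day 7. At day 3 the sums were uneven, with 763.9 and 3044 CPM. At day 7 the other microglia had 14010 and 14490 CPM, above both sums of cluster 3. In single wells the median Apoe level at day 7 was 19.9 per 10000 transcripts in cluster 3 (highest 100.8) and 96.7 in the other microglia (highest 802.5). Over both pairs at day 7, Apoe stood at 2940 CPM in cluster 3, against 2551 in cluster 4, 5525 in cluster 5, 2053 in cluster 6, 17770 in cluster 11 and 35540 in cluster 14. The higher level of the other microglia thus lay mostly in clusters 11 and 14. In the P1 pair clusters 4, 5 and 6, at 1113, 1955 and 1901, were below the 2580 of cluster 3. In the P2 pair clusters 4 and 5, at 4750 and 7609, were above the 3538 of cluster 3. Cluster 6 was below it there, at 2922. Apoe is also made by Muller glia and astrocytes, whose list without Apoe summed to 2378 and 1573 CPM in cluster 3 at day 7, against 715.1 and 1304 in control retina. Of its other members 2 were tested and did not pass, Glul (glutamine synthetase), with 1198 and 938.6, against 596 and 915.8, and Clu (clusterin), with 299.5 and 27.6, against 0 in both control sums. Of the remaining members, Gfap was at 0 in every cluster 3 sum. The part of these transcripts in the Apoe result was not tested.

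**Figure D4:**
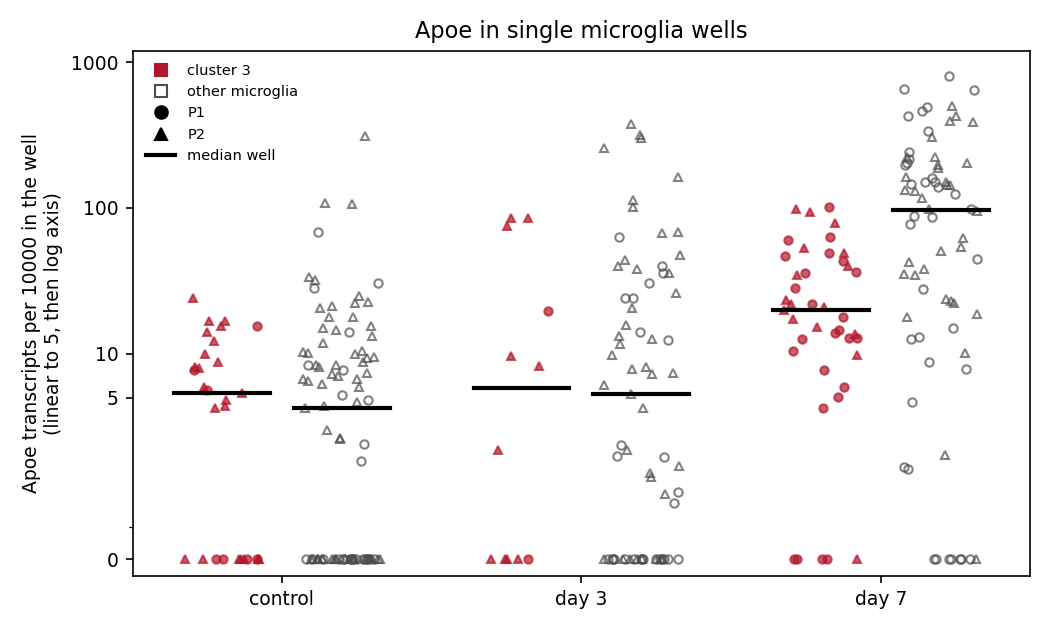
Apoe in single microglia wells (transcripts per 10000, axis linear to 5 and logarithmic above) of cluster 3 (filled) and of the other microglia (open) in control retina and 3 and 7 days after laser, with the median well as a bar. At day 7 the cluster 3 median is 19.9 and the highest well 100.8, against 96.7 and 802.5 in the other microglia.

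Ctsb, a lysosomal cysteine protease, had 3479 and 3205 CPM in cluster 3 at day 7, against 1549 and 1526 in control retina (log2 change 1.14 ± 0.26 SE, adjusted p = 5.05e-03, edgeR). Cd52, a small glycoprotein of the leukocyte surface, had 1214 and 1132, against 476.6 and 388.4 (1.49 ± 0.40 SE, adjusted p = 0.0402, edgeR). Within each gene the groups were well apart. Lrrc17, a gene for a leucine-rich repeat protein, had 782 and 607.5, against 59.57 and 194.2 (2.23 ± 0.55 SE, adjusted p = 8.67e-03, edgeR), but only 14 of 41 wells at day 7 held a transcript of it. Gm9493, a predicted gene, had 831.3 and 993.8, against 238.3 and 194.2 (2.10 ± 0.50 SE, adjusted p = 5.39e-03, edgeR).

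Cx3cr1, whose levels stand above, fell by 0.85 ± 0.23 on the log2 scale (SE; adjusted p = 0.0437, edgeR). Gpr34 had 1031 and 828.2 CPM at day 7, against 1907 and 2082 in control retina (log2 change -1.08 ± 0.30 SE, adjusted p = 0.0467, edgeR). A transcript of Cx3cr1 was found in 39 of 41 wells at day 7 and in 28 of 29 control wells, and one of Gpr34 in 36 of 41 and in 29 of 29. Mme, the peptidase neprilysin, had 232.7 and 331.2, against 476.6 and 1948 (log2 change -2.26 ± 0.43 SE, adjusted p = 8.11e-05, edgeR). One control well held 39.2 of the 78.2 Mme transcripts of control cluster 3, and without the control P2 pair the log2 change was -0.76 (adjusted p = 0.672, edgeR).

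**Figure D5:**
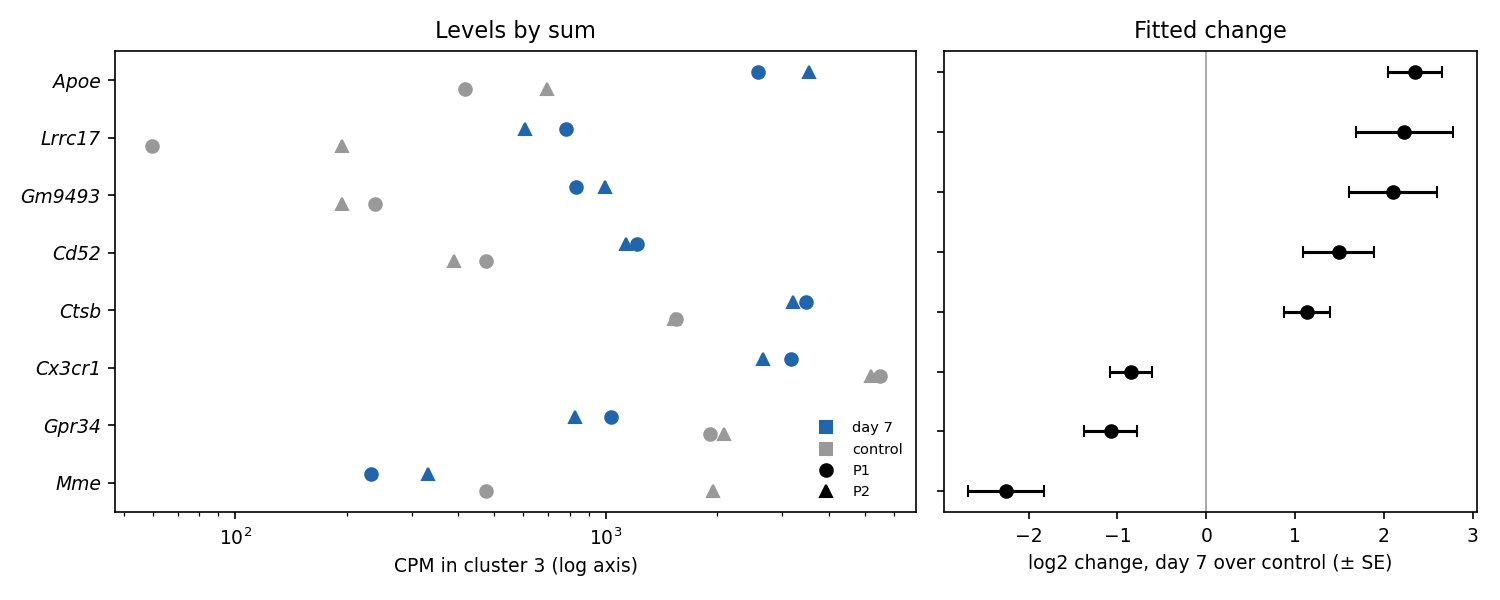
The 8 genes that passed the test between day 7 and control retina within cluster 3. Left, CPM in each sum (log axis; day 7 above control for each gene, circles P1, triangles P2). Right, fitted log2 change with its standard error, positive for Apoe, Lrrc17, Gm9493, Cd52 and Ctsb and negative for Cx3cr1, Gpr34 and Mme.

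The number of calls moved with the method and the samples. Without the day 3 P2 sum, which is outside this comparison, 1 of 618 genes tested passed. It was Apoe (log2 change 2.25, adjusted p = 0.0113, edgeR). The other calls then had an adjusted p of 0.129 to 0.159 (edgeR), with changes of the same sign. DESeq2 called 1 of the 1087 genes, Apoe, and leaving out any of the 5 sums left 1 to 5 calls. The call of Apoe was lost without the control P1 pair (log2 change 2.09, adjusted p = 0.133, edgeR) and held without each of the others.

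By list, 2 of 28 tested microglia markers fell between control and day 7 within cluster 3, where 0.276% of all genes tested fell, and 0 rose. The list's median log2 change was -0.34, with 21 of 28 members negative, against a median of -0.04 over all 1087 genes. P2ry12 changed by -0.65 ± 0.25 (SE) and Tmem119 by -0.84 ± 0.28, which did not pass (adjusted p = 0.271 and 0.152, edgeR). Csf1r changed by -0.14 ± 0.22 (SE), which did not pass either. Of 17 disease-associated microglia genes tested, 3 rose (Apoe, Ctsb and Cd52), 0 fell and 14 were positive, against 0.46% of all genes tested that rose and 48.1% that were positive. Cd63 missed the threshold with 798.1 and 745.4 CPM at day 7, against 357.5 and 166.5 in control retina (log2 change 1.72 ± 0.50 SE, adjusted p = 0.0503, edgeR).

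Of 55 ribosomal protein genes tested, 0 passed, yet 54 had a positive log2 change, with a median of 0.76, whereas 523 of all 1087 genes (48.1%) were positive. The list summed to 46310 and 50390 CPM in cluster 3 at day 7, against 30090 and 30630 in control retina, with no overlap. Rps7 came nearest to the threshold, with 482.1 and 634.9, against 119.2 and 138.7 (2.04 ± 0.59 SE, adjusted p = 0.0503, edgeR). Of 22 lysosome genes 1 rose, Ctsb, and 18 were positive. Grn, which encodes progranulin, had 3079 and 3510, against 1788 and 1887 (0.84 on the log2 scale, adjusted p = 0.0736, edgeR).

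Apoe was also the 1 call in the list of cholesterol and lipid genes and in that of Muller glia and astrocytes. The lists that follow held no call within cluster 3. Their signs stand beside 48.1% of all 1087 genes tested that were positive. All 5 TGF-beta pathway genes tested were negative, and Pmepa1, a target and inhibitor of that pathway, was nearest to the threshold (log2 change -1.26, adjusted p = 0.0503, edgeR). Of 8 immediate early genes tested, 6 were negative, and Fos, an AP-1 subunit, had 49.87 and 165.6 CPM at day 7, against 178.7 and 610.5 (-2.15 ± 0.64 SE, adjusted p = 0.0507, edgeR). The 4 interferon response genes and the 4 MHC class II genes tested were all positive, and among them Cd74, the invariant chain, had 249.3 and 193.2, against 0 and 83.23. Mki67, a proliferation marker, had 0 and 220.9 CPM at day 7, against 178.8 and 55.49, and the macrophage gene Mrc1 was at 0 in 5 of the 6 cluster 3 sums. Photoreceptor markers had 7 of 12 members positive and 0 calls, and their sums overlapped between day 7 (7385 and 11320) and control retina (6676 and 9464).

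Day 3 was not tested on its own, because its P1 sum rests on 2 wells. Admitting that sum, a choice made after the counts of wells were seen, 1 of 653 genes passed between day 3 and control retina within cluster 3 (0.153%), and 51 had an unadjusted p under 0.05. It was Gpr34, which fell to 572.9 and 642.8 CPM at day 3, against 1907 and 2082 in control retina (log2 change -1.83 ± 0.38 SE, adjusted p = 0.0354, edgeR). Between day 7 and day 3 in the same fit, 1 of 653 genes passed as well (0.153%). It was Lrrc17, with 782 and 607.5 at day 7, against 0 and 35.7 at day 3 (adjusted p = 0.0316, edgeR), which is 1 transcript over both day 3 sums.

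Finally, the change with time was set against that of the other microglia of the same pairs in 1 fit with an interaction term. Because these genes may have been used to draw both classes, the counts describe the classes and support nothing further. For the change between control and day 7, 6 of 2144 genes passed (0.28%) in edgeR's quasi-likelihood test, all with a lower change in cluster 3, among them Apoe (log2 difference of the changes -1.32) and H2-Aa (-1.53), an MHC class II chain. For the change between control and day 3, 19 passed (0.886%), on a single cluster 3 sum of 10 wells that was assumed to vary like the other sums, 9 with a higher and 10 with a lower change in cluster 3. Among them were Actb (-0.99), the actin-binding Tmsb4x (-0.97), Malat1 (1.05) and Gm42418 (1.06). The fit left out the day 3 P1 pair, where Actb, Tmsb4x and Malat1 went the same way and Gm42418 went the other way. There Gm42418 had 5545 CPM in cluster 3 (2 wells), against 24450 in the other microglia. In control P1 it had 7050, against 23890. Over single libraries, and without the control P2 pair, 0 genes passed at day 3, with 79 and 207 at an unadjusted p under 0.05. DESeq2 called 0 genes in either comparison, with 15 and 33 genes at an unadjusted p under 0.05.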

How the data were processed

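The deposited retina libraries give, for each gene in each well, an estimated count of transcripts that the authors derived from molecular identifiers and did not normalize. Reads were aligned with BWA 0.6.2-r126, per the submitters' processing notes. No source used here gives the genome build, the treatment of shared reads or the clustering method. The deposited annotation holds other values, a cell type and cluster per well. All 511 annotated wells were matched to 1 library well each by equality of their values, and 19989 rows of the authors' unnormalized table were named in the same way.

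Each well received 1 sorted cell, so no doublet caller was run. No well was filtered. Counts were summed per class, group and prefix, rounded, and fitted with edgeR 4.0.16 (filterByExpr, TMM, robust quasi-likelihood) in R 4.3.3. A gene was called at a Benjamini-Hochberg adjusted p under 0.05. Sums of under 5 wells were left out. DESeq2 1.42.0 was an alternative. The fit was tested on simulated data. Library totals ran from 371329 to 1130863 transcripts. Wilson intervals cover counting error only. Class ratios add a prior of 1 transcript, scaled to the size of a sum, and weight the 6 sums equally.

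Named genes are the 15 highest and 10 lowest class ratios of at least 50 CPM with the same sign in every sum, the called genes whose sums do not overlap, up to 4 members per list and a set of standard microglial genes. The cluster, the 28 gene lists and these rules were chosen with earlier results of these data known.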

Additional observations from a re-analysis of the deposited data

Results flagged for a closer look

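Genes whose change with time differed between cluster 3 and the other microglia of the same pairs in the interaction fit are given here, since such a difference between classes calls for a second look. These genes may have been used to draw both classes, so the values are descriptions. For the change between control and day 7, the log2 difference (cluster 3 minus other microglia) was -1.32 for Apoe, -1.53 for H2-Aa and -2.08 for Lyz1, a lysozyme. It was -2.39 for Gsto1, -3.39 for Mc1r and -5.85 for Cstb, and these 3 genes rest on few wells. Mc1r, for example, stood at 1503 CPM in the control P2 sum of cluster 3 and at 0 in the control P1 sum.

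For the change between control and day 3, which rests on 1 cluster 3 sum of 10 wells, 10 genes had the lower change in cluster 3. The log2 difference was -0.99 for Actb, -0.97 for Tmsb4x, -1.85 for Tuba1a and -1.77 for Ppia, a cyclophilin. Fth1, the ferritin heavy chain, gave -1.38 and Ctsd, cathepsin D, gave -1.004. Calr gave -1.94, Cd9 gave -1.35 and Lrrc58 gave -1.12. Tubb4b gave -10.05, a fitted value with no meaning as a fold, because cluster 3 held 0 transcripts of it at day 3.

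The higher changes in cluster 3 were in Malat1 (1.05), Gm42418 (1.06), Serinc3 (1.11), RP23-341H2.4 (1.57) and the G protein regulator Rgs2 (1.81). For Gm42418 the day 3 P1 pair, which this fit left out, went the other way. The inhibitory receptor Lair1 gave 1.89, Ivns1abp gave 2.12, the splicing factor Srsf5 gave 2.42 and Gm38195 gave 6.43. The last rests on 0 transcripts in the day 3 P2 sum of the other microglia.

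In 17 groups of 4 libraries, the share of wells in cluster 3 and the library medians of depth, genes, mitochondrial and left-out share showed 0 libraries far from the rest by Dixon's test. The medians were checked in control retina and at day 7 only, because a day 3 library held no cluster 3 well.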

How the results depend on the processing

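The 8 calls between day 7 and control within cluster 3 became 9 with RLE scaling, which kept all 8. They became 1 with no filter on low counts, 1 with DESeq2, 4 after wells below 1000 transcripts or above 25 percent mitochondrial were dropped, 13 with Gm42418 left out (chosen after seeing the data), and 1 to 5 when each sum was left out in turn. With the prefix as a replicate block 5 genes passed, of which Apoe, Ctsb, Gm9493 and Mme were among the 8. The deviations of same-prefix sums correlated over genes with r = 0.214, but the labels do not say what a prefix marks. Single libraries also gave 8 calls, 4 of them among the 8. The 6 genes whose day 7 change differed between classes became 0 with no filter, 0 with DESeq2, 3 with single libraries, 0 with signature-called microglia only, and 0 to 6 when a pair was left out. For Gsto1, the log2 difference of -2.39 ran from -3.59 to 4.71 when a pair was left out, and turned sign without the control P2 pair. The 19 genes of day 3 became 4 with no filter, 0 with DESeq2, 0 with single libraries, and 0 to 8 when a pair was left out. In edgeR the counts of 0 stood beside 302, 113 and 79 genes with an unadjusted p under 0.05, for the day 7 fits without filter and with signature calls and the day 3 fit over single libraries. The cause of these shifts was not tested. Among the 25 genes with the highest and lowest class ratios no direction turned under 8 alternatives, and 9 of 200 values moved by more than the spread between sums. These genes were chosen for the same sign in every sum. Alternatives that left out a group or the day 3 P1 sum therefore could not turn it. Depth limits the leading genes, and 10 of these 25 had a cluster 3 sum at 0.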
